A study of Mus musculus with 42 samples.

Results

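The Slco1 genes on distal chromosome 6 encode organic anion transporting polypeptides, membrane carriers that bring bile acids, steroid conjugates, thyroid hormones and many drugs into cells. The 6 genes described here are *Slco1a1*, *Slco1a4*, *Slco1a5*, *Slco1a6*, *Slco1b2* and *Slco1c1*, out of 21938 protein-coding genes. They were chosen by name and not by a cut on a measured value, though with earlier results of these data known. They were placed by the GENCODE vM21 annotation of mm10, in which all 6 names were found. The question is whether these genes meet lamin B1 in liver, and whether that changes after entrainment of the circadian clock by fasting and refeeding.

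Lamina-associated domains (LADs) are long stretches of chromatin that lie against the meshwork of lamins under the nuclear envelope. They are typically rich in A and T, poor in genes and heterochromatic, and genes within them are mostly silent. Hepatocytes take up bile acids and bilirubin from blood at their sinusoidal membrane, where carriers of the Slco1 family work beside the sodium-dependent bile acid carrier encoded by *Slc10a1*.

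Lamin B1 (LMNB1) was immunoprecipitated from crosslinked liver and sequenced in 14 mice, 2 for each of 7 time points. All mice were wild-type C57Bl/6. Non-synchronized (NS) mice were taken at noon on the day before food was removed. The others were fasted for 24 h, with food given back ad libitum from circadian time 0 (CT0), when lights came on. They were taken at CT0, CT6, CT12, CT18, CT24 and CT30. NS and CT0 mice thus differ in hour of day and in fasting, which cannot be told apart from entrainment. The labels call the mice female in some fields and male in others, and the study's methods call them male. Their age is not given in the sources used here. Of the 42 samples of the series, the 7 input and 21 RNA-seq libraries were not analysed here, so no level of a transcript is reported and the tissue could not be checked against marker genes.

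Each file lists the start and end of every LAD called in 1 liver, with no score and no count, so the sequencing depth behind a call is unknown and the values have no counting error. A liver is a mixture of cells, and a LAD call describes the whole piece of tissue. The study states that its ChIP does not by itself tell LMNB1 at the nuclear periphery from LMNB1 inside the nucleus. Some of the LADs called may thus not lie at the envelope. The libraries held 86 to 341 LADs that covered 335.3 to 663.0 Mb. The LAD starts of a library lie on a grid whose step, the bin size, ranged from 4 to 61 kb. The 2 mice of a time point are separate animals, but the series lists only 1 input library for each time point. Where both calls used that input, an effect of the input cannot be told apart from one of the time point.

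The members lie in a row within 798.6 kb, chr6:141524368-142322981 (mm10), 7.41 Mb from the end of the chromosome. *Slco1c1*, the thyroxine carrier of brain capillaries and choroid plexus, comes first at chr6:141524368-141570177 on the plus strand. *Slco1b2*, a liver carrier of bile acids and bilirubin, follows at chr6:141629518-141686646 on the same strand. The other 4 members are on the minus strand. *Slco1a4*, a carrier of liver and brain capillaries, occupies chr6:141805440-141856199, and *Slco1a1*, a carrier of liver and kidney, chr6:141907282-141946962. *Slco1a6*, known from kidney, lies at chr6:142085761-142208521, and *Slco1a5* at chr6:142234227-142322981. *Slco1a1*, *Slco1a4* and *Slco1b2* were treated as the 3 liver-expressed members and the others as the 3 members known mainly from other tissues, a division taken from textbook knowledge.

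The sequence just before the start sites is shown here because its composition is like that of promoters in LADs, while the LAD calls placed none of these start sites in one. RefSeq (GRCm38.p6, the assembly of mm10) gives 7 start sites for the 6 members, 2 of them for *Slco1a5*. The 250 bases before 3 of these start sites are printed 5′ to 3′ on the strand of the gene. Capitals mark the dinucleotide CG, the letters TATAAA of a TATA box and the letters GTTAAT, which form one arm of the recognition site of the liver factor HNF1. The latter 2 were searched on both strands, and matches that share bases were each counted.
Slco1b2, chr6:141629268-141629517, plus strand: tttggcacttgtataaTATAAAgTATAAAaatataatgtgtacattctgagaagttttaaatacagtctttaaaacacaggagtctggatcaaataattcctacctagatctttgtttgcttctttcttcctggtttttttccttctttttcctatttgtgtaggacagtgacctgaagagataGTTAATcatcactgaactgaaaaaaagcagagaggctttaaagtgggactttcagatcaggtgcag
Slco1a1, chr6:141946963-141947212, minus strand: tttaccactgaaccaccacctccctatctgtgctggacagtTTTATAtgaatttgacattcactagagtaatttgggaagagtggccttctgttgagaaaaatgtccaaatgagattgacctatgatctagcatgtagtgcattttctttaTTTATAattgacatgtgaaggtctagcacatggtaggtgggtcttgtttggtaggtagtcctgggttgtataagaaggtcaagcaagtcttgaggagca
Slco1a5, chr6:142322982-142323231, minus strand: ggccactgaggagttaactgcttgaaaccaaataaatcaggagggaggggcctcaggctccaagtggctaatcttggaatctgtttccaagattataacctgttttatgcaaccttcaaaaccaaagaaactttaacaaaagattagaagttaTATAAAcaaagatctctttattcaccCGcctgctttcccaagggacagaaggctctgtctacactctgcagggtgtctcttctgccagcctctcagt

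The upstream sequences of the cluster are poor in G and C. The GC content was 33.6% for *Slco1b2*, 39.2% for *Slco1a4*, 40.4% for *Slco1a1*, 36.4% for *Slco1a6*, 42.8% for *Slco1c1* and 43.6% for either start of *Slco1a5*. Of all 32851 upstream sequences, the 27748 with a start site in no LAD of any library had a median GC content of 53.6%, and the 323 with a start site in a LAD in all 14 libraries had one of 41.2%. The members thus lie nearer to the median of the second set, although they belong to the first. The CG dinucleotide was missing from 4 of the 7 sequences of the cluster, as it was from 5.40% of the sequences never in a LAD and 21.7% of those in a LAD in every library. All 7 held 2 or fewer, against 23.6% and 64.4% of these sets.

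The letters TATAAA were present upstream of 4 of the 7 start sites, those of *Slco1b2*, *Slco1a1* and both of *Slco1a5*, and in 12.4% of all upstream sequences. GTTAAT was present upstream of *Slco1b2* only, and in 6.43% of all sequences. Of the sequences never in a LAD, 10.3% held TATAAA and 5.83% GTTAAT. Among those in a LAD in every library the shares were 21.4% and 9.29%. The matches are of letters, on either strand and anywhere in the 250 bases, and are not binding sites. The RefSeq start of *Slco1a6* lies 22.4 kb from the start of its GENCODE gene model, and the second start of *Slco1a5* 44.1 kb from its own, so that an upstream sequence and a gene model can differ for these genes.

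No LAD touched the cluster in any liver. The start site of each of the 6 members was outside LADs in all 14 libraries, that is in 84 of 84 pairs of gene and library, and 0% of every gene body was covered. Of all protein-coding start sites, 4.02 and 7.97% were in a LAD in the 2 NS mice, 5.25 and 8.19% at CT0, 6.92 and 9.89% at CT6, and 8.1 and 9.43% at CT12. At CT18 the shares were 9.28 and 10.4%, at CT24 they were 8.99 and 7.88%, and at CT30 they were 6.16 and 5.58%. Over the 14 libraries, 16.7% of the 21938 genes had their start site in a LAD in at least 1 and 0.83% in all, and the gene body touched a LAD in at least 1 library for 17.1%. A count of 0 of 6 is thus what most genes show, since no base of the gene body was in a LAD in any library for 82.9% of the genes. The share of the whole span covered was 0% at NS and at each CT, so its change with entrainment was 0 and no test of time could be computed. The share of the span is not a graded signal, and contacts too weak or too short to be called as a LAD are not seen in it.

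The liver-expressed and the other members did not differ in LAD coverage. The mean covered share of *Slco1a1*, *Slco1a4* and *Slco1b2* was 0% in every library, as was that of *Slco1a5*, *Slco1a6* and *Slco1c1*, and no test can be made on 14 differences of 0. The genes between and beside the members gave the same count. *Gm5724*, *Gm6614* and *Iapp*, which encodes amylin, lie between them, *Pde3a*, a cyclic nucleotide phosphodiesterase gene, is the next gene below and *Pyroxd1* the next above. Each had its start site in a LAD in 0 of 14 libraries. With 18103 of the 21860 genes compared, those on other chromosomes or over 5 Mb away, the members share the pattern of 0% in each library, so no gene of most similar pattern can be named.

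**Figure D1:**
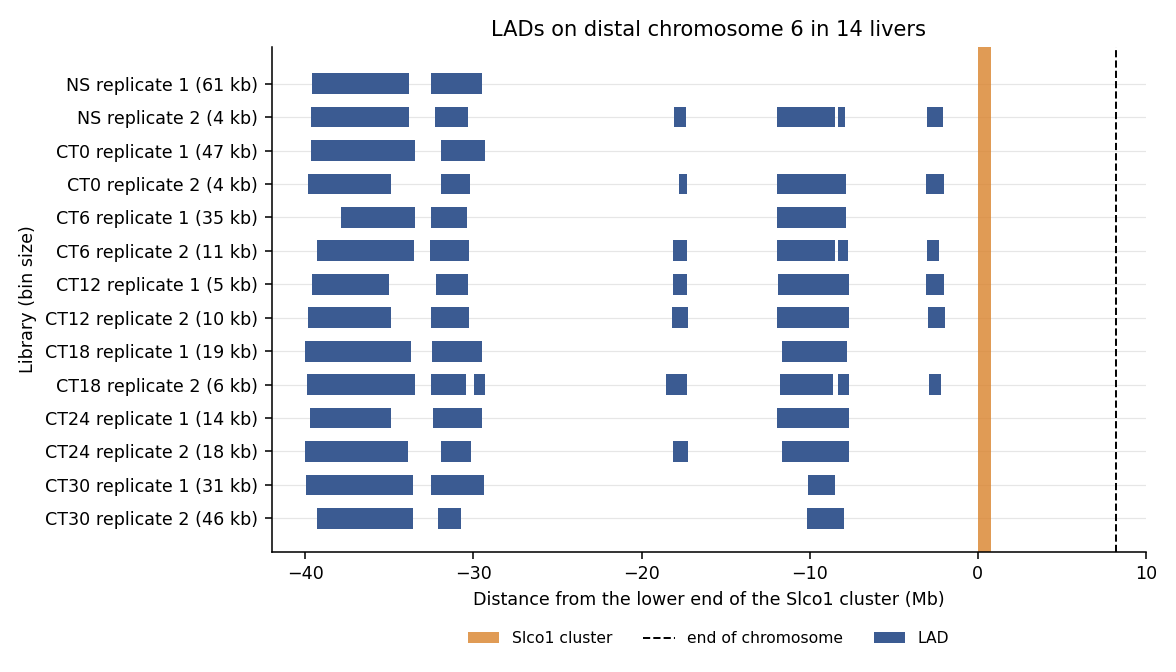
LADs (bars) on distal chromosome 6 in each of the 14 libraries, with the bin size of the library in brackets; the x axis is the distance in Mb from the lower end of the Slco1 cluster (orange band), and the dashed line is the end of the chromosome. No bar touches or lies above the cluster, and the bars nearest to it are present in 6 libraries.

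Above the cluster no LAD was called up to the end of the chromosome in any library, so every distance from the members to the nearest LAD is measured towards lower coordinates. The base pairs that lie in no LAD of any library form a stretch around the cluster at chr6:139560001-149736546, 10.2 Mb long, which is the 49th longest of 374 such stretches, with a median of 2.76 Mb. It holds the start sites of 68 protein-coding genes, 6.68 per Mb. The span of the cluster makes up 7.85% of it and holds 9 of these start sites, 11.3 per Mb. The map of LADs by library shows the same empty end of the chromosome in all 14 livers.

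The nearest LAD was 1 of 3 domains, and which of them it was depended on the library. In 6 libraries it lay within chr6:138435001-139560000, a region of 1.12 Mb with the start sites of *Lmo3*, which encodes a LIM-only transcription cofactor, *Igbp1b* and *Rergl*. This is called the *Lmo3* LAD here. In 6 other libraries that LAD was absent and the nearest was in chr6:129570001-133884000. That region of 4.31 Mb holds 59 start sites, among them 19 Klr genes for natural killer cell receptors and 24 Tas2r genes for bitter taste receptors, and is called the Klr-Tas2r LAD. In the remaining 2 libraries both were absent, and the nearest LAD was the one of *Grm7*, a glutamate receptor gene, at chr6:108955001-112194000.

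The distance from the lower end of the cluster, which is the start of *Slco1c1*, was 29.5 Mb in NS replicate 1 and 2.08 Mb in NS replicate 2. At CT0 it was 29.3 Mb in replicate 1 and 2.02 Mb in replicate 2. At CT6 it was 7.82 and 2.29 Mb. The replicates of these 3 time points lay far apart, with another LAD nearest in each of the 2 mice. At CT12 the distance was 1.98 and 1.96 Mb, and at CT18 it was 7.80 and 2.21 Mb. At CT24 it was 7.66 and 7.64 Mb, and at CT30 it was 8.50 and 7.99 Mb. The mice of CT12 were thus alike, as were those of CT24 and those of CT30. At CT6 and at CT18, 1 mouse lay near the values of CT12 and the other just above those of CT24. Replicate 1 had the larger distance at 7 of 7 time points, by as little as 0.0160 Mb at CT24. The likeness of the CT12 mice depends on LAD size. Counting only LADs of at least 1 Mb moved 4 libraries. CT12 replicate 2 went to 7.68 Mb, while CT12 replicate 1 stayed at 1.98 Mb. NS replicate 2 went to 8.49 Mb, CT6 replicate 2 to 8.49 Mb and CT18 replicate 2 to 8.58 Mb. In replicate 2 of NS, CT6 and CT18 the Klr-Tas2r LAD was called in 2 pieces. There the piece facing the cluster was under 1 Mb and dropped out too.

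**Figure D2:**
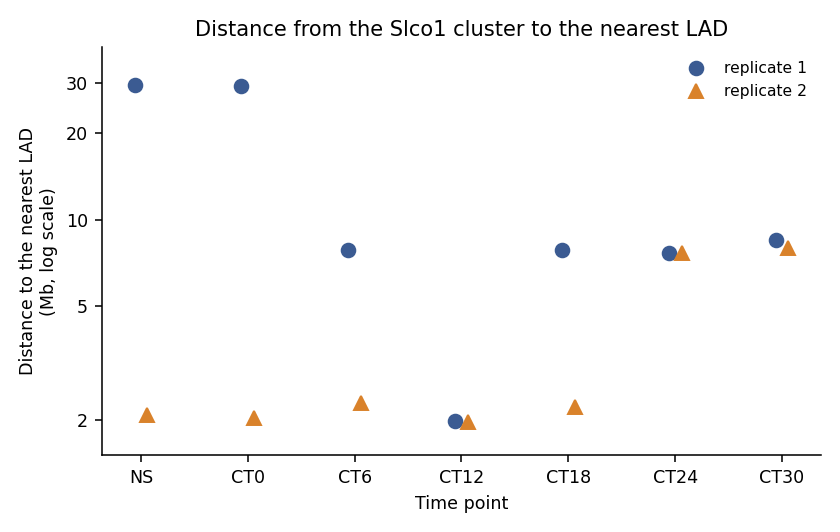
Distance in Mb (log scale) from the lower end of the Slco1 cluster to the nearest LAD at each time point, 1 point per mouse and 2 mice per time point. The 2 mice differ by over 5 Mb at NS, CT0, CT6 and CT18 and lie close together at CT12, CT24 and CT30.

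The CT0 mice averaged 15.7 ± 19.3 Mb (SD, n = 2 here and below). The means of CT6 and CT18 were near each other, 5.06 ± 3.92 and 5.01 ± 3.95 Mb. The lowest mean was that of CT12 with 1.97 ± 0.0141 Mb, while CT24 averaged 7.65 ± 0.0113 Mb and CT30 8.24 ± 0.366 Mb. The spread between the CTs was no larger than that within them, with an F ratio of 0.653. An exact permutation test over the 10395 divisions of the 12 libraries into 6 pairs gave p = 0.660 (Benjamini-Hochberg adjusted p = 0.660 over 3 F tests of distance and LAD length). Without CT0 replicate 2, which leaves the 29.3 Mb of replicate 1 alone at CT0, the F ratio was 18.1 (exact permutation p = 0.00866). A cosine with a period of 24 h explained a share of 0.228 of the variance of the distance (permutation test with 100000 resamples, p = 0.306).

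The mean distance was 15.8 ± 19.4 Mb at NS (SD, n = 2). The difference of CT0 from NS was -0.0920 Mb (p = 0.667 by a two-sided exact permutation test, in which 2 mice against 2 allow no p below 0.333). With only LADs of at least 1 Mb it was -3.30 Mb (exact permutation p = 0.667). With 1 mouse left out it ranged from -13.8 to 13.6 Mb, and it was above 0 without NS replicate 1 (13.6 Mb) and without CT0 replicate 2 (13.6 Mb).

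The distance moved with the bin size. The *Lmo3* LAD was called in all 6 libraries with a bin size of 4 to 11 kb and in none of the 8 with one of 14 to 61 kb. Within the first set, which holds both mice of CT12 and replicate 2 of NS, CT0, CT6 and CT18, the distance was 1.96 to 2.29 Mb, with a median of 2.05 Mb. Within the second it was 7.64 to 29.5 Mb, with a median of 7.91 Mb, and the highest values came from the libraries with bin sizes of 47 and 61 kb. Genome coverage overlapped between the sets, 526.5 to 663.0 Mb in the first and 335.3 to 631.4 Mb in the second, whereas the number of LADs did not (243 to 341 and 86 to 186). The part of the bin size in the result was not tested.

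**Figure D3:**
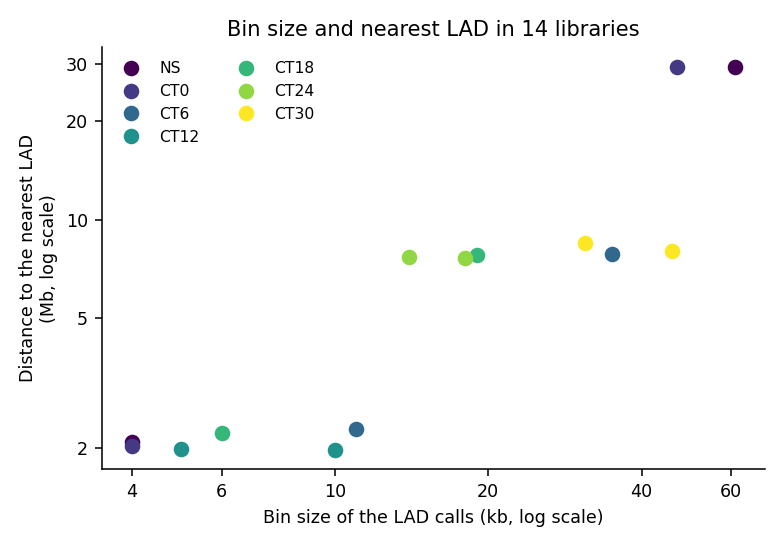
Distance in Mb from the lower end of the Slco1 cluster to the nearest LAD against the bin size in kb of the library (both axes on a log scale), 1 point per library, coloured by time point. The 6 libraries with a bin size of at most 11 kb lie at 1.96 to 2.29 Mb, and the 8 others at 7.64 Mb or above.

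Where it was called, the *Lmo3* LAD varied in its borders by less than its own length. Its 5′ border, away from the cluster, lay between 138435001 and 138612001, a range of 177 kb, and its 3′ border, facing the cluster, between 139238000 and 139560000, a range of 322 kb (6 libraries). The LAD measured 0.928 Mb in NS replicate 2, 1.05 Mb in CT0 replicate 2, 0.704 Mb in CT6 replicate 2 and 0.702 Mb in CT18 replicate 2. At CT12 it measured 1.10 Mb in replicate 1 and 0.980 Mb in replicate 2. The 2 mice of CT12 were the only pair in which both livers had it. Set to 0 where it was absent, its length gave an F ratio of the CTs of 1.71 (exact permutation p = 0.273, adjusted p = 0.409). This p was not below 0.05, which with 2 mice per CT does not show that the length stayed the same.

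The Klr-Tas2r LAD was present in 12 libraries and missing from NS replicate 1 and CT0 replicate 1, which had the largest bin sizes. In replicate 2 of NS, CT6 and CT18 it was called in 2 pieces, whose lengths are added here. It covered 1.61 Mb in CT30 replicate 1 and 2.16 Mb in replicate 2, and 3.84 to 4.30 Mb in the other 10 libraries. Both CT30 values lay below every other library with this LAD. Most of the difference was at the 5′ border, which faces away from the cluster and began at 131409001 and 131376001 at CT30. The other starts lay between 129570001 and 129884001. Over all CTs the F ratio of the length was 1.64, with a p not below 0.05 (exact permutation p = 0.232, adjusted p = 0.409). The mice of CT0 lay far apart, as CT0 replicate 1 had none of this LAD and CT0 replicate 2 had 4.13 Mb. Without CT0 replicate 1 the F ratio was 42.2 (exact permutation p = 0.00847) and without CT0 replicate 2 it was 104 (exact permutation p = 0.000770). The bin sizes at CT30, 31 and 46 kb, were among the larger ones, though CT6 replicate 1 had 35 kb and covered 4.09 Mb. LADs also covered a mean of 398.9 Mb of the genome at CT30, the lowest mean of all time points. The part of the bin size or of this low coverage in the shorter LAD at CT30 was not tested.

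Every member has the same nearest LAD in a given library, so the distances of the 6 genes differ by their place on the map alone. From its gene body, *Slco1c1* was 1.96 Mb from a LAD at the closest, with a median of 7.65 Mb and 29.5 Mb at the farthest. *Slco1b2* followed with 2.07, 7.75 and 29.6 Mb. *Slco1a4* had 2.25, 7.93 and 29.7 Mb, and *Slco1a1* 2.35, 8.03 and 29.9 Mb. *Slco1a6* had 2.53, 8.21 and 30.0 Mb, and *Slco1a5*, the farthest, 2.67, 8.36 and 30.2 Mb. Since they share LADs and span less than 1 Mb, the spread over libraries exceeds that between genes many times over, and the order of neighbours carries nothing beyond their position. The mean of the liver-expressed members differed from that of the others by -0.167 Mb in each library, which the positions of the genes fix.

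These distances are ordinary for a gene. In the library where each member came closest to a LAD, between 36.6% (*Slco1a5*) and 44.6% (*Slco1c1*) of protein-coding genes were farther at their own closest. Within single libraries, 10.9 to 62.5% of genes were farther from a LAD than a member was, and the lowest shares came from CT0 replicate 1 and NS replicate 1. Genes on a chromosome without a LAD in a library have no distance there and were counted as not farther. In CT0 replicate 1, 20807 of the 21938 genes had a distance. All 6 members were over 1 Mb from every LAD in all libraries, as were 59.5% of all genes.

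**Figure D4:**
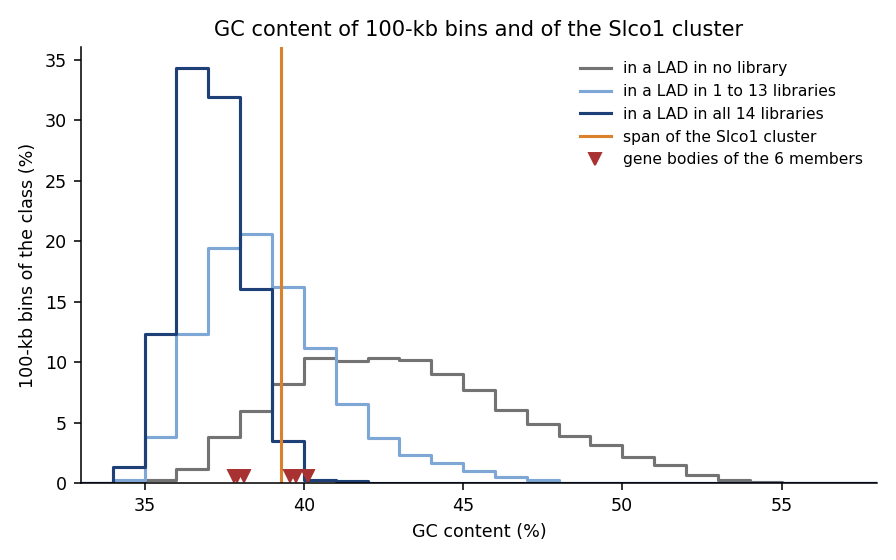
GC content in percent of 100-kb bins in a LAD (at least 50% covered) in no library, in 1 to 13 libraries or in all 14, as the percentage of bins in each class. The line marks the span of the Slco1 cluster at 39.3% and the triangles the gene bodies of its members. All lie between the median of the bins always in a LAD and that of the bins never in one.

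The cluster was low in GC for a region outside LADs. Its span had a GC content of 39.3%, and 45.6% of its bases are marked as repeats in the RefSeq assembly. Among the 16950 bins of 100 kb that were in a LAD, by at least 50% of their length, in no library, the median GC content was 43.0%, and 13.6% of the bins were below the cluster. Among the 1499 bins in a LAD in all 14 libraries it was 37.1%, and 98.1% of the bins were below the cluster. The median share of repeats was 29.2% in the first class and 42.8% in the second. In its repeats the cluster thus exceeded the median of the bins always in a LAD, and in GC content it lay between both medians. The *Lmo3* region had a GC content of 38.2% and the Klr-Tas2r region 38.1%.

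The gene bodies of the members were as low. *Slco1a1* had a GC content of 37.8%, *Slco1b2* 37.9%, *Slco1a4* 38.1%, *Slco1c1* 39.6%, *Slco1a6* 39.8% and *Slco1a5* 40.1%. The 3 liver-expressed members had the lowest values of the 6. The median was 46.4% over the 18285 genes whose start was never in a LAD and 36.7% over the 182 genes whose start was in a LAD in every library. From 3.00% (*Slco1a1*) to 11.2% (*Slco1a5*) of the genes never in a LAD had a lower GC content than a member. These are comparisons of sequence with sequence, described without a test, and neighbouring genes are not independent.

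Of 9 Slco genes listed on other chromosomes, 8 were found in the annotation, all but *Slco6b1*, and 3 of these 8 had their start site in a LAD in at least 1 library, beside 16.7% of all genes. For 5 of these 8 the start site was in no LAD of any library, among them *Slco2b1*, a further hepatic carrier of organic anions, at 2.81 to 4.36 Mb from the nearest LAD, and *Slco5a1* at 0.243 to 12.1 Mb. The other 3 are neighbours on chromosome 1, so that they are not independent of each other, and were in LADs in most livers. *Slco4c1*, an organic anion carrier known from kidney, at chr1:96816270-96872171, had its start site in a LAD in 11 of 14 libraries, *Slco6c1* at chr1:97059038-97128301 in 10 and *Slco6d1* at chr1:98421124-98516991 in 11. *Slco6c1* and *Slco6d1* belong to a subfamily known from testis.

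The gene bodies of these 3 genes were covered to 100% or 0% in almost every library. *Slco4c1* was at 0% in both NS mice and in CT0 replicate 1, and at 100% in the other 11 libraries. *Slco6c1* was at 0% in these 3 libraries and in CT24 replicate 2. *Slco6d1* was at 0% in CT0 replicate 1 and CT30 replicate 2, at 97.0% in CT24 replicate 2 and at 100% in the others. The GC content of their gene bodies, 38.1%, 36.2% and 37.2%, was close to that of the Slco1 genes. The F ratios of the CTs were 1 for *Slco4c1*, 0.8 for *Slco6c1* and 0.788 for *Slco6d1*, but the permutation test could not decide on them. Among the CT libraries *Slco4c1* was at 0% in CT0 replicate 1 only, so all 10395 divisions give the same F ratio. *Slco6c1* and *Slco6d1* were at 0% in so few CT libraries that most divisions tie or nearly tie. No conclusion on time is drawn for these genes.

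Transporters that work beside the Slco1 carriers in hepatocytes were outside LADs too, as most genes were. The start site was in a LAD in 0 of 14 libraries for the 6 uptake carriers examined and the 14 efflux carriers and their partners, beside 16.7% of all genes with a start site in a LAD in at least 1 library. *Slc10a1*, the sodium-dependent bile acid carrier, was at least 6.81 Mb from a LAD, and *Abcb11*, the canalicular bile salt export pump, 1.62 Mb. *Abcg2*, a drug efflux pump on the same chromosome, came closest of the 20 with 0.0425 Mb, and *Abcb4*, the phospholipid flippase, came to 0.180 Mb. The median closest distance was 1.72 Mb over the 20 transporters, 2.30 Mb over the 6 members and 1.57 Mb over all protein-coding genes. Of the 20, 14 were over 1 Mb from every LAD in all libraries, beside the 59.5% of all genes.

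**Figure D5:**
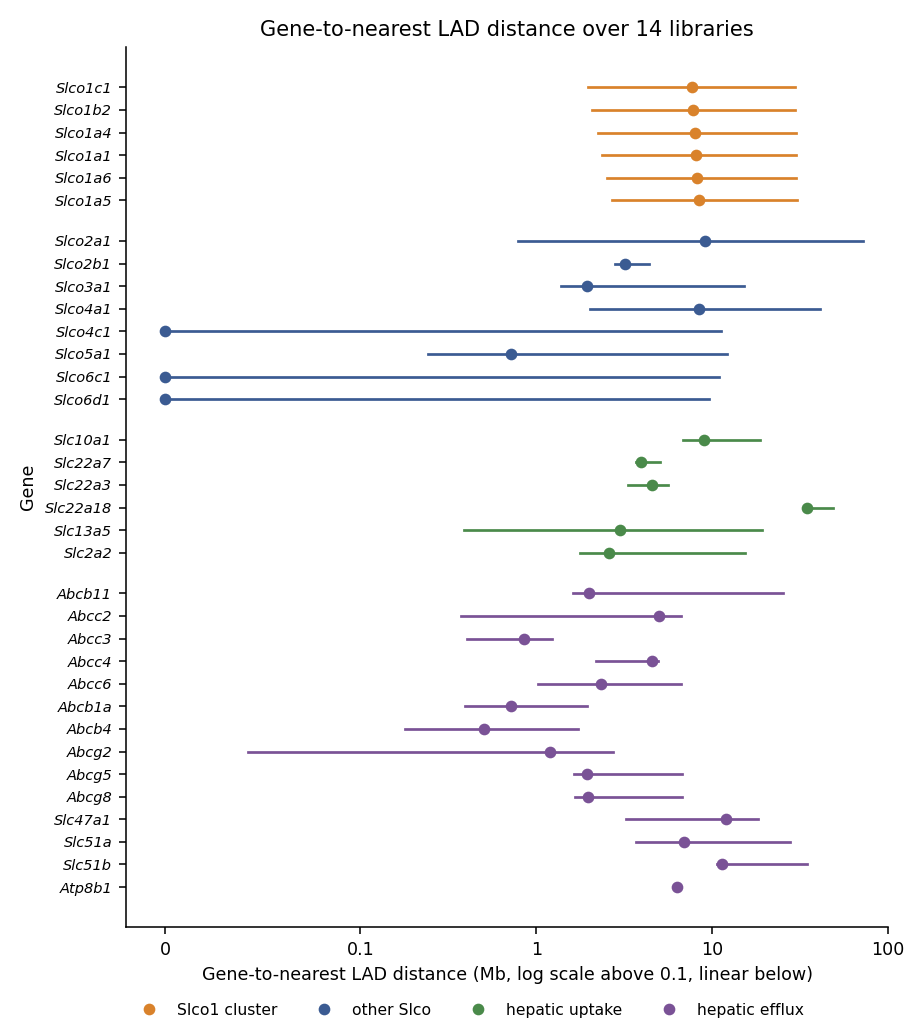
Gene-to-nearest LAD distance in Mb (log scale above 0.1 Mb, linear below) over the 14 libraries for the 6 members, 8 other Slco genes and 20 hepatic transporters; the line runs from the lowest to the highest library and the point is the median. Only *Slco4c1*, *Slco6c1* and *Slco6d1* reach 0 among the genes drawn.

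Across the genome, 3306 protein-coding genes had a gene body coverage that varied between the 12 CT libraries, and no Slco1 gene of chromosome 6 was among them. Of these 3306, 0% had an adjusted p below 0.05 by the exact F test of the 6 CTs. At an unadjusted p below 0.05 the F test called 46 genes, 1.39%, and the same test on ranks 50. The smallest p reached was 0.00433, well above the smallest that the 10395 divisions allow, 9.62e-05. An adjusted p below 0.05 would take 7 genes at that smallest p, or more genes at a larger one. Libraries with equal coverage make divisions tie, which raises the smallest p that a gene can reach. The share of 0% is thus no sign that coverage stayed the same over time.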

How the data were processed

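LMNB1 ChIP-seq LAD calls of 14 mice were used. The authors removed duplicates (Picard), mapped reads to mm10 (Bowtie) and matched the depth of ChIP and input within each chromosome. They called LADs per mouse by EDD, with a GapPenalty and BinSize set for each dataset from repeated automatic estimates, so libraries differ in resolution. The labels name Bowtie2 version 2.25.0. The deposited files give LAD start and end in base pairs and no other value. Replicate numbers are those of the sample titles, which differ from the file names for some mice.

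Genes were the 21938 protein-coding genes of GENCODE vM21, ascribed to a LAD by the 5′ end of the gene model. Gene-to-nearest LAD distance was counted from the gene body. The bin size was read from the spacing of LAD starts as their greatest common step in kb. F ratios of the 6 CTs were tested by exact permutation over divisions of the libraries into pairs, with Benjamini-Hochberg adjustment, and the procedure was tested on simulated data. Python 3.11.15, NumPy 2.4.6 and SciPy 1.17.1 were used. Sequences came from RefSeq GRCm38.p6. Alternatives were LADs of at least 1 Mb, edges moved by 50 kb, a span widened by 100 kb, other start sites, intersects and unions of replicates, ranks, a replicate block and leaving out each library.

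The members and lists were chosen with earlier results of these data known. Named were all members, their neighbours, listed transporters in a LAD with a few others as examples, and up to 3 genes of like pattern. Examples from the transporter lists that were in no LAD were picked after their values were seen. An item of these lists is not reported here. The sequence measures and the tests of log10 distance, of LAD lengths, of a cosine in the distance and of CT0 against NS in the distance were added after the data were seen.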

Additional observations from a re-analysis of the deposited data

How the results depend on the processing

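No alternative placed a LAD on the cluster: the covered share of the span, the start sites in LADs, the difference between liver-expressed and other members and the number of libraries with a LAD above the cluster were 0 under every setting run. These included LADs of at least 1 Mb, LAD edges moved outward by 50 kb, intersects and unions of replicates, any transcript start and each library left out in turn. The planned cosine of the cluster share and the upper-side distance could not be computed, as no library gave a value other than 0 or a LAD above the cluster, and for the same reason neither the share of the span nor the difference between members could be given a replicate block.

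Those counts and shares, with the count of genes past an adjusted threshold, make up 89 alternative values of 0, which have no direction to keep. F ratios and the cosine share have no direction and were judged by their side of the threshold alone. The difference of CT0 from NS was judged by its direction alone. On these terms 79 of the other values stayed the same, 4 passed the threshold and 2 turned their direction. Some of the 79 could not change. Edges moved by 50 kb or a span widened by 100 kb shift every distance alike. The F ratio of the distance (0.653) and its cosine share (0.228) were thus fixed there. Moved edges also fixed the difference of CT0 from NS at -0.0920 Mb, and a replicate block cannot change that mean. With each library left out in turn, the F ratio of the distance to the nearest LAD ranged from 0.468 to 18.1 and that of its log10 from 0.411 to 3.69 (main value 0.722, exact permutation p = 0.566). The F ratio of the *Lmo3* LAD length ranged from 0.891 to 3.78, and that of the Klr-Tas2r LAD length from 1.01 to 104. The values past the threshold were those without CT0 replicate 2 (18.1, 3.69 and 104) and without CT0 replicate 1 (42.2 for the Klr-Tas2r LAD). In these fits the mouse left alone at CT0 is assumed to vary like the mice of other CTs. The difference in distance between CT0 and NS ranged from -13.8 to 13.6 Mb when 1 mouse was left out, and was -3.30 Mb with only LADs of at least 1 Mb.

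Replicate numbers do not mark a shared animal. The deviations of replicate 1 from the CT mean correlated above 0.1 in 3 of 15 pairs of CTs (median r = 0.0569, across genes), which falls short of a pairing, although the distance was larger in replicate 1 at 7 of 7 time points. With the replicate block the F ratio of the distance was 0.792 (exact permutation p = 0.507), and the block changed no other call. With it, 0 of 3306 genes had an adjusted p below 0.05, and 12 an unadjusted one. Leaving out 1 library leaves 1 mouse alone at a CT, so the counts of genes from these fits are not read here. With no score per LAD, neither a stricter calling threshold nor an interval for depth could be had.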
